A study of Mus musculus with 5 samples.

Results

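Naive CD4 T cells of the spleen library were split by their Ly6c1 transcripts, and cells with at least 2 unique molecular identifiers (UMIs) of Ly6c1 were set beside cells with 0. The library held 7955 cells. Of these, 7337 had 0 UMIs of Ccl5, Foxp3 and Cd44, genes of memory-like cells, regulatory T cells and activated or memory cells, and were kept. Among them, 1578 cells formed the Ly6c1-high side and 4178 the Ly6c1-negative side, together 5756 of the 20149 cells of the series. The sides were selected on measured values of 1 library, so that every difference between them is a description with no test, and Ly6c1, Ccl5, Foxp3 and Cd44 are left out of the genes described.

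The cells were SMARTA cells, CD4 T cells with a transgenic T cell receptor, on a C57BL/6 background, sorted as CD4+CD45.1+ cells and profiled by droplet sequencing of transcript 3′ ends. The naive library came from spleen and carried the treatment label none. The other 4 libraries, 1 per group and from the same genotype, came from the tumor-side lymph node on day 8 after tumor injection: no treatment, CTLA4 blockade, Treg depletion, and both together. They enter here only for the same split of cells. The number of mice behind a library was not given in the sources used here, the labels do not give the age of the mice, and the protocols name the injected tumor as MC38 in one place and as PyMG in another.

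Ly6c1 encodes Ly6C1, a small surface glycoprotein held in the membrane by a glycosylphosphatidylinositol (GPI) anchor. Its gene lies at chr15:75044018-75048830 on the minus strand (GRCm38), in a cluster of Ly6 family genes that also holds Ly6a (chr15:74994877-74998031, minus strand), which encodes Sca-1. In mice, resting CD4 T cells differ in surface Ly6C, interferons raise Ly6C and Sca-1 on lymphocytes, and low Ly6C among naive CD4 T cells has been tied to stronger recognition of self ligands, for which surface CD5 is the usual gauge.

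Both sides had nearly the same depth. The median was 1676.5 UMIs and 1296.5 genes per cell on the Ly6c1-high side and 1684 UMIs and 1304 genes on the Ly6c1-negative side. Their summed counts were 2738331 and 7208476 UMIs, and levels are given as CPM, counts scaled to the same total for each side. A single UMI was worth 0.365 CPM on the high side and 0.139 CPM on the negative side. Between the sides lay 1581 cells with 1 Ly6c1 UMI, which belong to neither. The high side held 744 cells with 2 UMIs, just inside the threshold, and 834 with 3 or more. Ly6c1 itself stood at 1797 CPM on the high side. A cell at 0 UMIs is not shown to lack the transcript. Of the kept cells 43.1% had a Ly6c1 UMI (32.8% after each cell had been thinned to 1000 UMIs, leaving out shallower cells), against 1 of 10 cells with at least 4 B cell markers (median 2007 UMIs), and 0 of 10 after thinning, where the interval reached up to 30.8%. A higher summed level can mean more cells with a transcript or more of it per cell. Up to 10 cell barcodes were shared between any pair of libraries.

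Markers of CD4 T cells stood at similar levels on both sides. Cd4, the co-receptor, measured 440 CPM in Ly6c1-high and 435 CPM in Ly6c1-negative cells. Thy1 (1115 against 1005 CPM) and Cd28 (690 against 764 CPM) differed slightly in opposite directions. The 3 listed CD4 T cell markers summed to 2246 and 2204 CPM. The variable segments of the transgenic receptor did not separate the sides. Trbv13-1 measured 175 and 168 CPM and Trav14d-3-dv8 92.4 and 92.8 CPM, the latter with 73.7% of its 3′ end words of 31 bases shared with other Trav14 segments. Markers of other cells differed between the sides in part. Cells with a UMI of the gamma chain constant genes Tcrg-C1, Tcrg-C2 or Tcrg-C4 numbered 37 of 1578 on the high side (2.34%, exact 95% interval 1.66% to 3.22%) and 23 of 4178 on the negative side (0.551%, 0.349% to 0.825%). The 9 listed markers of monocytes, macrophages and granulocytes summed to 7.67 CPM on the high side and 69.1 CPM on the negative side, and the 6 of plasma cells to 7.30 and 46.3 CPM. The 5 markers of NK and NKT cells summed to 93.1 and 46.3 CPM, nearly all of it Klrd1 and Prf1, while Ncr1 and Klrb1c had 0 UMIs on the high side and 1 and 2 UMIs on the negative side, and Klre1 had 0 on both. The 5 gamma delta T cell markers summed to 700 and 530 CPM, most of it Trdc, and the 12 B cell markers to 847 and 775 CPM, most of it Ighm. Ighm alone measured 825 and 643 CPM. Every other B cell marker went the other way, with less on the high side. Among them were Cd74 (8.76 against 67.6 CPM), H2-Aa (0.365 against 11.8 CPM) and Cd79a (3.65 against 11.4 CPM). Some ratios are given below with and without the cells holding gamma chain UMIs, or with and without cells of 5 or more Cd74 UMIs. No ratio is given without the myeloid, plasma or NK marker cells alone.

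Most genes stood at the same level on both sides. Filtering on low values (30 UMIs over both sides and 25 CPM on average) left 6753 genes. Of these, 18 (0.267%) were at least 1.5-fold higher in Ly6c1-high cells and 22 (0.326%) at least 1.5-fold lower, each with a 95% interval that excluded 1. A wider rule, used for the gene lists, took genes at least 25% higher, or lower at a ratio of 0.8 or less, again with an interval that excluded 1, and gave 157 higher (2.32%) and 176 lower (2.61%). The median log2 ratio over all of them was -0.01. Intervals are exact conditional binomial (Clopper-Pearson) intervals of the ratio and cover counting error only, because a single library has no replicate and cells of 1 library are not replicates. The words higher and lower below refer to genes that passed one of these rules, and the shares above are what all genes gave under the same rule.

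**Figure D1:**
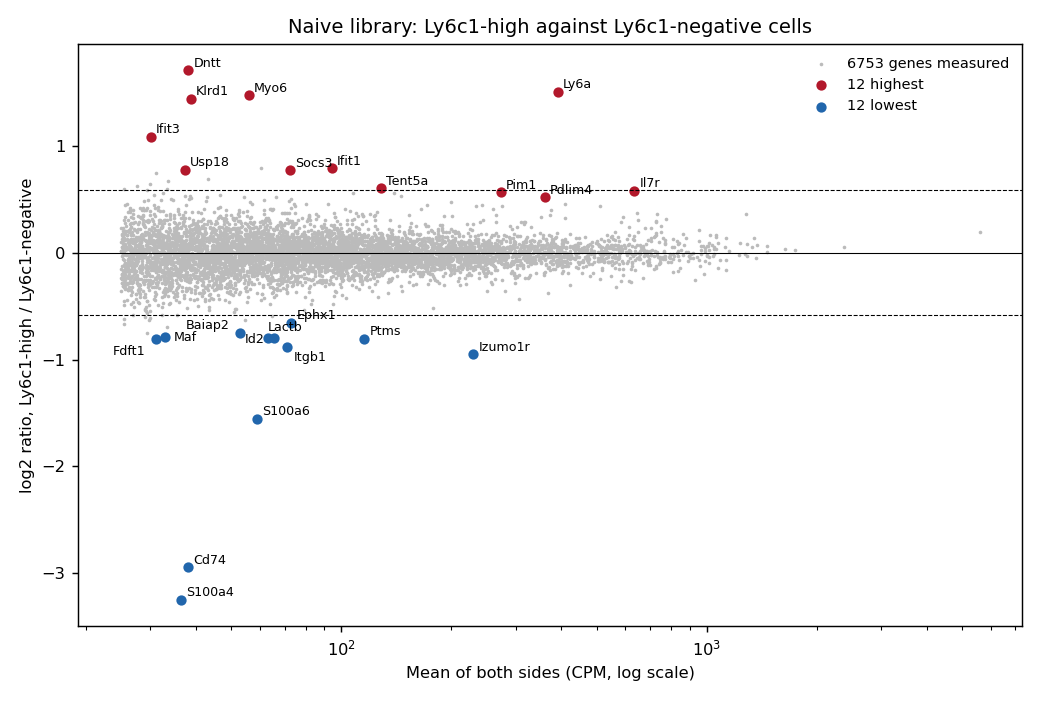
Each point is 1 of the 6753 genes measured in the naive library, with the mean level of both sides (CPM, log scale) on the horizontal axis and the log2 ratio of Ly6c1-high to Ly6c1-negative cells on the vertical axis; dashed lines mark 1.5-fold. The 12 highest genes by interval bound (red) include Ly6a and Il7r at high levels, and the 12 lowest (blue) are led by S100a4 and Cd74, while nearly all other genes lie between the dashed lines.

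The interferon-inducible genes give the upstream sequences with the clearest shared feature, and 6 sequences of 250 bases are shown for that reason: 3 interferon genes that were higher, Socs3 and Il7r from the cytokine group, and Ly6c1 itself. They come from RefSeq (GRCm38.p6) and end at the base before the annotated start, 5′ to 3′ on the gene's strand. Capitals mark matches on either strand to GAAANNGAA, the core of the interferon response element, or to TTCNNNGAA, the palindrome that STAT factors bind. They are Ifit1 (chr19:34640639-34640888, plus), Ifit3 (chr19:34583279-34583528, plus), Igtp (chr11:58199306-58199555, plus), Socs3 (chr11:117969367-117969616, minus), Il7r (chr15:9529877-9530126, minus) and 1 of 2 RefSeq starts of Ly6c1 (chr15:75048838-75049087, minus).
Ifit1: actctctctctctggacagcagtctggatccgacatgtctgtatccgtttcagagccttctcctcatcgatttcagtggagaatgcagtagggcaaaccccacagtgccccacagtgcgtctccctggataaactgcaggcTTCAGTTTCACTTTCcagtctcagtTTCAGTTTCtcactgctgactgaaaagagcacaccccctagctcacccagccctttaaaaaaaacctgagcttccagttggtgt
Ifit3: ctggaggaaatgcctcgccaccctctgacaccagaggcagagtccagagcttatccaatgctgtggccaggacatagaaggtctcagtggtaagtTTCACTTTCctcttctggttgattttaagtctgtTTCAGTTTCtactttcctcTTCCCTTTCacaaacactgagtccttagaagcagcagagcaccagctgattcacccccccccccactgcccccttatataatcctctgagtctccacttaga
Igtp: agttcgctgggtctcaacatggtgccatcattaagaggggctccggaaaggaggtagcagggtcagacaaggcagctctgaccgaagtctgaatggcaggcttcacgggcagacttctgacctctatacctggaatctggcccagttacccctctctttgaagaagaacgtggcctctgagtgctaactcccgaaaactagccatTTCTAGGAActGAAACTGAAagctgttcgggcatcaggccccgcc
Socs3: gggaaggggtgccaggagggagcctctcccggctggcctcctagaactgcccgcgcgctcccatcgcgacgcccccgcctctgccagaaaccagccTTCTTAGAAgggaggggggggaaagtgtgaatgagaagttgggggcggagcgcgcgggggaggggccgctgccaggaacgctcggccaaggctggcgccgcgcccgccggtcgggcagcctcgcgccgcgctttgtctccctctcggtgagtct
Il7r: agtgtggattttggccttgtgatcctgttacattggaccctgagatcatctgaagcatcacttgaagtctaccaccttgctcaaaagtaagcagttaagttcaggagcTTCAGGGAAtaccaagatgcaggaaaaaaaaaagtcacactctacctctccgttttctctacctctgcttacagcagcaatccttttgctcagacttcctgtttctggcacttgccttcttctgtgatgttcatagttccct
Ly6c1: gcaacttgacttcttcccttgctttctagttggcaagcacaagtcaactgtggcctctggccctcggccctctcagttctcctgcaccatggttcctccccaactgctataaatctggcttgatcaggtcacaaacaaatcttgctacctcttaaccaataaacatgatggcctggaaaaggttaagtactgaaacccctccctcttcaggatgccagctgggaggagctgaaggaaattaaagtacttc

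In Ifit1 the interferon motif began 109, 103 and 84 bases before the start, with the first 2 matches overlapping, and in Ifit3 155, 121 and 102 bases before it. Igtp held the interferon motif 34 bases and the STAT motif 45 bases before its start, Socs3 the STAT motif at 154 and Il7r at 142 bases. The Ly6c1 windows held neither, and nor did those of Irf7, Ifi47 and Pim1, which were also higher. Among all 32851 windows of this length in the table, 7.13% held GAAANNGAA and 7.02% held TTCNNNGAA. The latter was in 1 of 18 windows (5.56%) of the cytokine signal feedback list, that of Socs3. For the type I interferon list the first motif was in 14 of 37 windows (37.8%) and for the interferon gamma list in 6 of 13 (46.2%). For the 12 highest genes it was in 2 of 11 windows (18.2%) and for the 12 lowest in 2 of 9 (22.2%). In the same windows TTCNNNGAA was in 2 of 11, those of Socs3 and Il7r, and in 0 of 9. Split by level, GAAANNGAA was in 8 of 13 windows (61.5%) of interferon list genes that were higher in Ly6c1-high cells. It was in 12 of 36 (33.3%) of those that were not. TTCNNNGAA was in 4 of 13 (30.8%) and 1 of 36 (2.78%) of the same windows. Several genes have more than 1 window, 11 and 28 genes were matched in these groups, and a match of letters is not a shown binding site.

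Type I interferon genes stood higher in Ly6c1-high cells as a group. Of 33 measured members 10 were at least 25% higher and 0 lower by the list rule, 32 lay above a ratio of 1 (3153 of 6753 for all genes), and the median log2 ratio was 0.23. Ifit3, an antiviral effector with tetratricopeptide repeats, measured 40.9 CPM in Ly6c1-high and 19.3 CPM in Ly6c1-negative cells, a ratio of 2.12 (95% interval 1.64 to 2.74). Its relative Ifit1 measured 119 and 69.1 CPM, a ratio of 1.73 (1.5 to 1.99). Usp18, the protease that takes the ubiquitin-like protein ISG15 off its targets and damps interferon receptor signaling, measured 47.1 and 27.5 CPM, a ratio of 1.72 (1.36 to 2.15). Bst2, which tethers budding virus, had a ratio of 1.39 (233 against 167 CPM), Isg15 1.36 (198 against 145 CPM) and Irf7, the transcription factor that amplifies interferon production, 1.29 (135 against 104 CPM). Isg20, Ifi213, Ifi47 and Parp14 made up the 10, with ratios between 1.27 and 1.29.

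The genes that interferon gamma induces moved in the same direction. Of 17 measured members 6 were higher and 0 lower, 16 lay above 1, and the median log2 ratio was 0.27. The immunity-related GTPase Igtp measured 166 CPM in Ly6c1-high and 113 CPM in Ly6c1-negative cells (ratio 1.47, 1.31 to 1.65). The guanylate-binding proteins Gbp7 (172 against 119 CPM, ratio 1.45) and Gbp2 (85.8 against 60.3 CPM, ratio 1.42) were also higher, as were Nlrc5, the transactivator of MHC class I genes (ratio 1.33), Ifi47 (1.28), which is in both lists, and Gbp6 (1.34), 61.1% of whose 3′ end words occur in other Gbp genes. Outside the lists, Ifih1, a sensor of double-stranded RNA, had a ratio of 1.59 (1.248 to 2.02), Ifit1bl1 1.61 (1.31 to 1.99) and Cd274, which encodes the checkpoint ligand PD-L1, 1.5 (1.16 to 1.94). These 3 were among the 18 genes at 1.5-fold and were picked out after their values had been seen.

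As a group, the type I interferon genes were nearly level at 1 Ly6c1 UMI. Ifit1 stood at 69.1 CPM in cells with 0 Ly6c1 UMIs, 66.6 with 1, 103 with 2 and 134 with 3 or more. Ifit3 stood at 19.3, 22.6, 30.8 and 49.5 CPM and Isg15 at 145, 141, 165 and 227 CPM in the same order. When cells with exactly 1 UMI were set against those with 0, the median log2 ratio of the type I list was 0.02 and 0 of its 32 measured members passed the list rule in either direction. With 3 or more UMIs, 16 of 33 members were higher and the median was 0.31.

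Ly6a rose with Ly6c1 in steps and was the gene with the ratio furthest above 1 by its interval. It encodes Sca-1, another GPI-anchored Ly6 protein, and measured 579 CPM in Ly6c1-high and 204 CPM in Ly6c1-negative cells, a ratio of 2.84 (2.64 to 3.05). Its level was 204 CPM in cells with 0 Ly6c1 UMIs, 313 with 1, 471 with 2 and 672 with 3 or more. Part of the 3′ ends is alike between these genes: 23.2% of the 31-base words of the last 300 bases of the Ly6c1 transcripts and 13.5% of those of Ly6a also occur in other genes, among them each other, and the part of misassigned reads in the ratio was not tested. Ly6c2, the closest relative with 47.2% of its words shared, had 12 UMIs on the high side and 30 on the negative side, a ratio of 1.05 (0.491 to 2.12). Lypd6b, the other Ly6 family gene that passed the filter, had a ratio of 1.27 (1.03 to 1.56). Of the 30 Ly6 family genes listed, 10 are among the genes analysed here and these 2, Ly6a and Lypd6b, passed the filter on low values.

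A few genes of cytokine sensing were higher, and most were not. Il7r, the receptor chain for the survival cytokine IL-7, measured 760 CPM in Ly6c1-high and 509 CPM in Ly6c1-negative cells, a ratio of 1.49 (1.41 to 1.58), and stood at 509, 611, 722 and 793 CPM at 0, 1, 2 and 3 or more Ly6c1 UMIs. Il21r (ratio 1.33, 297 against 224 CPM) and Ifngr1, the ligand-binding chain of the interferon gamma receptor (ratio 1.33, 189 against 142 CPM), were the other higher ones of 20 measured cytokine receptors, with 0 lower and a median of 0.05 (log2). Among 17 genes of cytokine signal feedback, 3 were higher and 0 lower, with a median of 0.09. They were Socs3, a suppressor of cytokine signaling (91.3 against 53.4 CPM, ratio 1.71, 1.45 to 2.01), and the STAT-induced kinases Pim1 (326 against 220 CPM, ratio 1.48, 1.36 to 1.61) and Pim2 (37.6 against 26.8 CPM, ratio 1.40, 1.1 to 1.79). Pim1 stood at 220, 255, 301 and 348 CPM across the 4 Ly6c1 classes. Socs3 is also an immediate early gene, and of the 17 measured genes of the immediate early and dissociation stress list 3 were higher (Socs3, Egr1, Dnajb1) and 0 lower, with a median of 0.12. The part of cell handling in these values was not tested.

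**Figure D2:**
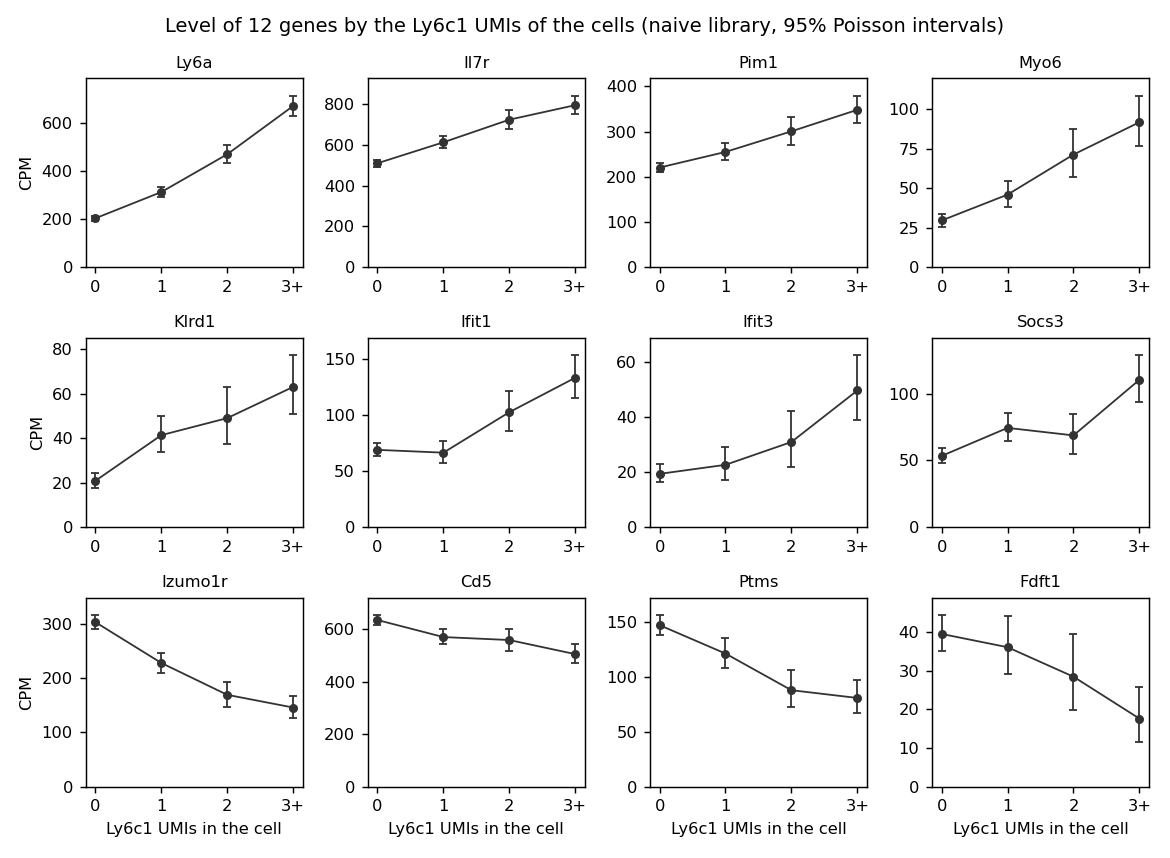
Level (CPM, vertical axis from 0) of 12 genes in naive cells with 0, 1, 2 and 3 or more Ly6c1 UMIs (horizontal axis); bars are exact 95% Poisson intervals, counting error only. Ly6a, Il7r, Pim1, Myo6 and Klrd1 go up at each step, Ifit1 is as low at 1 UMI as at 0, and Izumo1r, Cd5, Ptms and Fdft1 go down at each step.

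Genes of the naive and homing programme were slightly higher or level. Of 31 measured members 6 were higher and 0 lower, and the median log2 ratio was 0.08. Besides Il7r these were Tent5a, a poly(A) polymerase (155 against 102 CPM, ratio 1.52, 1.34 to 1.71), Pdlim4, a cytoskeletal adaptor (424 against 296 CPM, ratio 1.43, 1.33 to 1.54), Cd55 (1.33), Itga6 (1.33) and Dapl1 (1.29). Ccr7, a lymph node homing receptor, had a ratio of 1.1 (919 against 837 CPM). The transcription factors of naive T cells were nearly level, with ratios of 1.04 for Klf2, 0.993 for Tcf7, 1.05 for Lef1 and 1.05 for Bach2. Of 20 quiescence regulators 0 passed in either direction, and the same held for 14 S phase genes, 4 G2M genes and 28 respiration genes.

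Among the genes with ratios above 2.5 were also Myo6 and Klrd1. Myo6, an unconventional myosin that moves towards the minus end of actin filaments, measured 82.2 and 29.5 CPM (ratio 2.78, 2.30 to 3.37) and stood at 29.5, 45.9, 71.2 and 91.6 CPM across the Ly6c1 classes. Klrd1, which encodes the receptor chain CD94 of NK and some T cells, measured 56.6 and 20.8 CPM (ratio 2.72, 2.16 to 3.43) and stood at 20.8, 41.4, 49.0 and 63.1 CPM. Its UMIs came from 127 Ly6c1-high and 130 Ly6c1-negative cells, and the 5 cells with most UMIs held 17 of 155 and 14 of 150, so that both levels came from many cells. Both ratios were above 1 in each of 4 equal bins of cell depth (1.86 to 3.70 for Myo6, 1.92 to 4.70 for Klrd1). The bins divide the same cells from which these genes were picked. Prf1, which encodes the pore-forming protein perforin, was higher at a lower level (36.5 against 25.1 CPM, ratio 1.45, 1.13 to 1.87).

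Dntt and Ikzf2 moved with the few cells that hold gamma chain transcripts. Dntt encodes terminal transferase, an enzyme of receptor gene assembly in thymocytes, and measured 58.4 CPM in Ly6c1-high and 17.9 CPM in Ly6c1-negative cells, a ratio of 3.27 (2.57 to 4.15). Across the Ly6c1 classes it stood at 17.9, 28.2, 22.1 and 89.6 CPM, so that it was high at 3 or more UMIs and not at 2. Without the cells holding a UMI of Tcrg-C1, Tcrg-C2 or Tcrg-C4 the ratio of Dntt was 1.64. Ikzf2, which encodes Helios, had a ratio of 1.44 (78.5 against 54.5 CPM) with those cells and 0.560 without them. Ccr9, a gut and thymus homing receptor, had 1.23 with and 0.798 without them. In the list of recent thymic emigrants and maturation, 5 of 21 measured members were higher and 0 lower (Dntt, Ikzf2, Il7r, Cd1d1, H2-Q6), and the median log2 ratio was 0.13. Without the cells holding gamma chain UMIs, S100a6, described below, moved from 0.341 to 0.156. Leaving out the same cells hardly moved Ly6a (2.66), Myo6 (2.85), Klrd1 (2.80), Ifit3 (2.2) or Il7r (1.53).

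Genes tied to receptor signal strength did not move as a block. Of 25 measured members 3 were higher and 0 lower, and the median log2 ratio was 0.07. The negative regulators Cd5 and Cd6, whose surface levels follow self recognition, were below 1 without reaching a ratio of 0.8: Cd5 measured 530 and 635 CPM (ratio 0.835, 0.786 to 0.885) and Cd6 379 and 467 CPM (ratio 0.811, 0.756 to 0.870). Cd5 stood at 635, 570, 558 and 505 CPM at 0, 1, 2 and 3 or more Ly6c1 UMIs. Egr1 (172 against 135 CPM, ratio 1.28) and Egr3 (52.6 against 39.4 CPM, ratio 1.33), transcription factors induced by receptor signals, were higher, as was Tagap (1.47), 64.8% of whose 3′ end words occur in Tagap1. Nr4a1, the Nur77 gene, measured 48.9 and 45.8 CPM (ratio 1.07, 0.868 to 1.31).

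Izumo1r, next in rank after S100a4, Cd74 and S100a6, whose UMIs came from 81, 85 and 101 cells of the negative side, was lower across many cells. It encodes folate receptor 4, a surface protein of anergic and regulatory T cells, and measured 157 CPM in Ly6c1-high and 303 CPM in Ly6c1-negative cells, 1.93-fold lower (1.74 to 2.15). It went down at each step, from 303 CPM at 0 Ly6c1 UMIs to 228, 169 and 146 CPM, and its UMIs came from 311 and 1295 cells. Cd200, an inhibitory ligand of the anergy and follicular helper lists, was 1.43-fold lower (31.04 against 44.5 CPM). Of 14 measured anergy and tolerance genes these 2 were lower and Egr3 higher, with a median log2 ratio of -0.08. Of 14 follicular helper genes Cd200 and Maf were lower and 0 higher, with a median of -0.09. Icos had a ratio of 0.829 and Id3, which restrains helper differentiation, of 0.802, both short of the list rule.

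Cholesterol synthesis was the list with the lowest median. Of 17 measured members 11 were lower, at a ratio of 0.8 or less, and 0 higher, and the median log2 ratio was -0.37. The steps from acetate to sterol were lower at many points. Mvk, mevalonate kinase, measured 27.8 and 37.0 CPM (1.33-fold lower), Idi1 42.4 and 61.0 CPM (1.44-fold) and Fdps 116 and 151 CPM (1.30-fold). Fdft1, squalene synthase, measured 22.6 and 39.5 CPM, 1.75-fold lower, and stood at 39.5, 36.1, 28.5 and 17.6 CPM across the Ly6c1 classes. Of the later steps Cyp51, Dhcr7 and Sc5d were 1.29-fold to 1.33-fold lower. So was the sterol-responsive gene Insig1 (1.47-fold), which holds the pathway's regulator in the endoplasmic reticulum. Srebf2, which encodes the regulator itself, was level (165 against 167 CPM, ratio 0.993), and Hmgcs1 (0.837) and Sqle (0.845) did not pass. Idi1 and Fdps share 26.7% and 21.1% of their 3′ end words with unnamed gene models. The sterol motif TCACNCCAC was in 1 of 12 upstream windows of the list, that of Hmgcs1, and in 1.05% of all windows.

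Other metabolic genes differed little. Of 12 measured glycolysis genes Tpi1 (1.44-fold) and Pfkp (1.27-fold) were lower and 0 higher, with a median of -0.05. Of 25 ribosome biogenesis genes and Myc targets 0 passed in either direction, although 2 alone lay above 1 and the median was -0.12. Eif5a, a translation factor, had a ratio of 0.839 (848 against 1010 CPM).

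**Figure D3:**
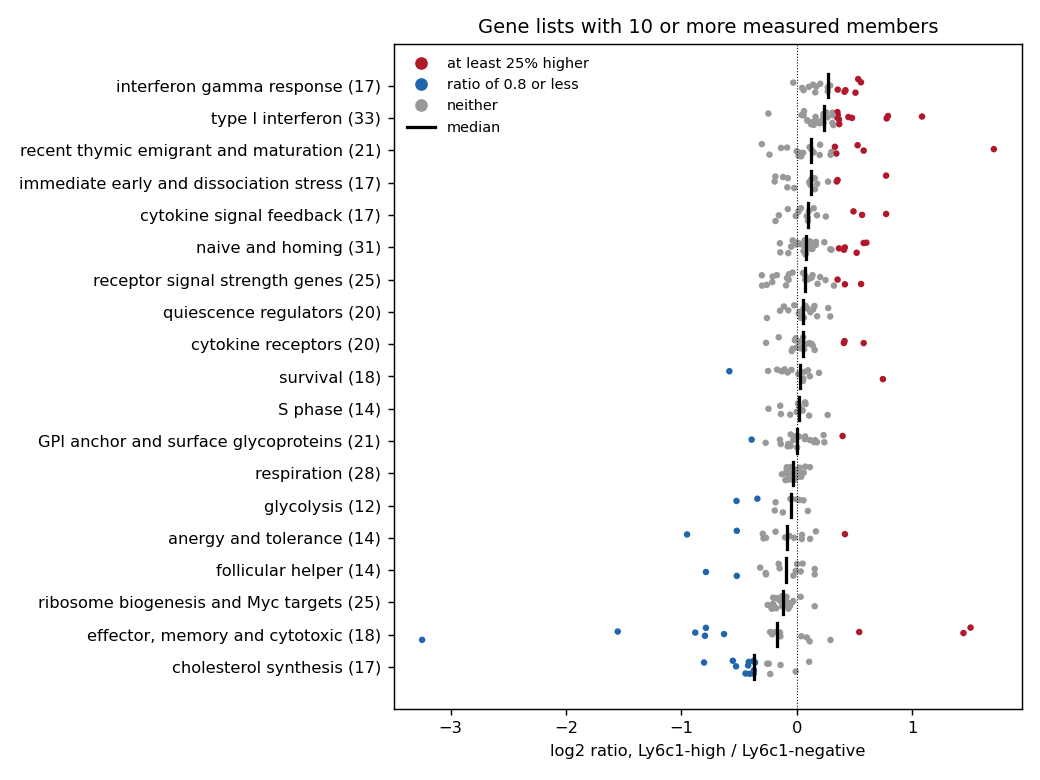
Each point is 1 measured gene of a list (number measured in brackets), with its log2 ratio of Ly6c1-high to Ly6c1-negative cells on the horizontal axis; red and blue points passed the list rule, and black bars are medians. Of these lists of 10 or more measured genes, the interferon lists have the highest medians (0.27 and 0.23) and cholesterol synthesis the lowest (-0.37), and the effector list has genes far out on both sides.

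The effector, memory and cytotoxic list held genes far out on both sides. Of 18 measured members 3 were higher (Ly6a, Klrd1, Prf1) and 6 lower (S100a4, S100a6, Itgb1, Id2, Maf, Ahnak), with a median log2 ratio of -0.17. S100a4, a calcium-binding protein of effector and memory cells, measured 6.94 and 65.9 CPM, 9.50-fold lower (6.01 to 15.9), and S100a6 29.9 and 87.8 CPM, 2.93-fold lower (2.33 to 3.74). These levels came from few cells. Of the 475 S100a4 UMIs of the negative side 136 lay in 5 cells, and all of them in 81 cells. Cells with a UMI of S100a4 or S100a6 numbered 39 of 1578 on the high side (2.47%, 1.76% to 3.36%) and 132 of 4178 on the negative side (3.16%, 2.65% to 3.74%), and these intervals overlap. The integrin chain Itgb1 measured 50.0 and 92.1 CPM (1.84-fold lower), the transcription regulator Id2 47.8 and 83.1 CPM (1.74-fold lower) and the transcription factor Maf 24.1 and 41.6 CPM (1.73-fold lower). With the cells holding S100a4 or S100a6 UMIs left out, the ratios of Itgb1, Id2, Maf and Ahnak were 0.8, 0.791, 0.846 and 0.804, against 0.543, 0.576, 0.579 and 0.646 with them. The list then had 5 members higher and 1 lower of 15 measured, and the genes at least 1.5-fold lower numbered 13 in place of 22. S100a4 shares 56.0% of its 3′ end words with the gene model Gm42674.

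Cd74, the invariant chain of MHC class II and a B cell and myeloid marker, rested on fewer cells still. It measured 8.76 and 67.6 CPM, 7.71-fold lower (5.12 to 12.1), and 383 of its 487 UMIs on the negative side lay in 5 cells. With cells of 5 or more Cd74 UMIs left out (0 on the high side, 6 on the negative side) the ratio was 0.644, in place of 0.130.

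The rest of the 12 lowest genes did not move with these cells. Ptms, which encodes parathymosin, measured 84.0 and 147 CPM (1.75-fold lower, ratio 0.572 and 0.575 without cells holding S100a4 or S100a6) and stood at 147, 121, 87.8 and 80.7 CPM across the Ly6c1 classes. Lactb, a mitochondrial serine protease, was 1.74-fold lower (46.0 against 79.9 CPM), Baiap2, an adaptor of membrane and actin remodeling, 1.68-fold (39.4 against 66.3 CPM) and Ephx1, an epoxide hydrolase, 1.57-fold (56.6 against 89.1 CPM). Among survival genes Bbc3, which encodes the pro-apoptotic protein PUMA, was higher (39.1 against 23.3 CPM, ratio 1.68, 1.30 to 2.15) and Bcl2a1b, 83.0% of whose 3′ end words occur in its copies, was 1.5-fold lower, out of 18 measured. Of 21 genes of GPI anchoring and surface glycoproteins, Piga (ratio 1.32), of the first step of anchor assembly, was higher and Pgap1 (1.31-fold) lower.

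After every cell was thinned to 1000 UMIs, the leading genes named next stayed on the same side of 1, while fewer cholesterol synthesis genes passed. With the sides as chosen before thinning (1568 and 4092 cells deep enough) the ratios were 2.94 for Ly6a, 2.65 for Myo6, 2.88 for Klrd1, 2.14 for Ifit3, 1.87 for Ifit1, 1.44 for Il7r, 1.57 for Pim1 and 0.488 for Izumo1r. With the sides chosen again on the thinned cells (910 and 5009 cells) they were 2.89, 2.38, 2.64, 2.17, 2.15, 1.33, 1.55 and 0.546. The type I interferon list had 10 and 12 of 33 members higher, and cholesterol synthesis 7 and 5 of 16 lower. In each of the 4 depth bins all 12 highest genes stood above 1 and all 12 lowest below 1. These genes were picked by their ratio in the same cells, so that the bins give no separate check. In the 548 Ly6c1-high and 1427 Ly6c1-negative cells that held a UMI of either transgenic receptor segment, the ratio was 2.96 for Ly6a, 4.05 for Klrd1, 1.45 for Il7r and 0.571 for Izumo1r, while Cd74 stood at 0.861 and Maf at 1.19.

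**Figure D4:**
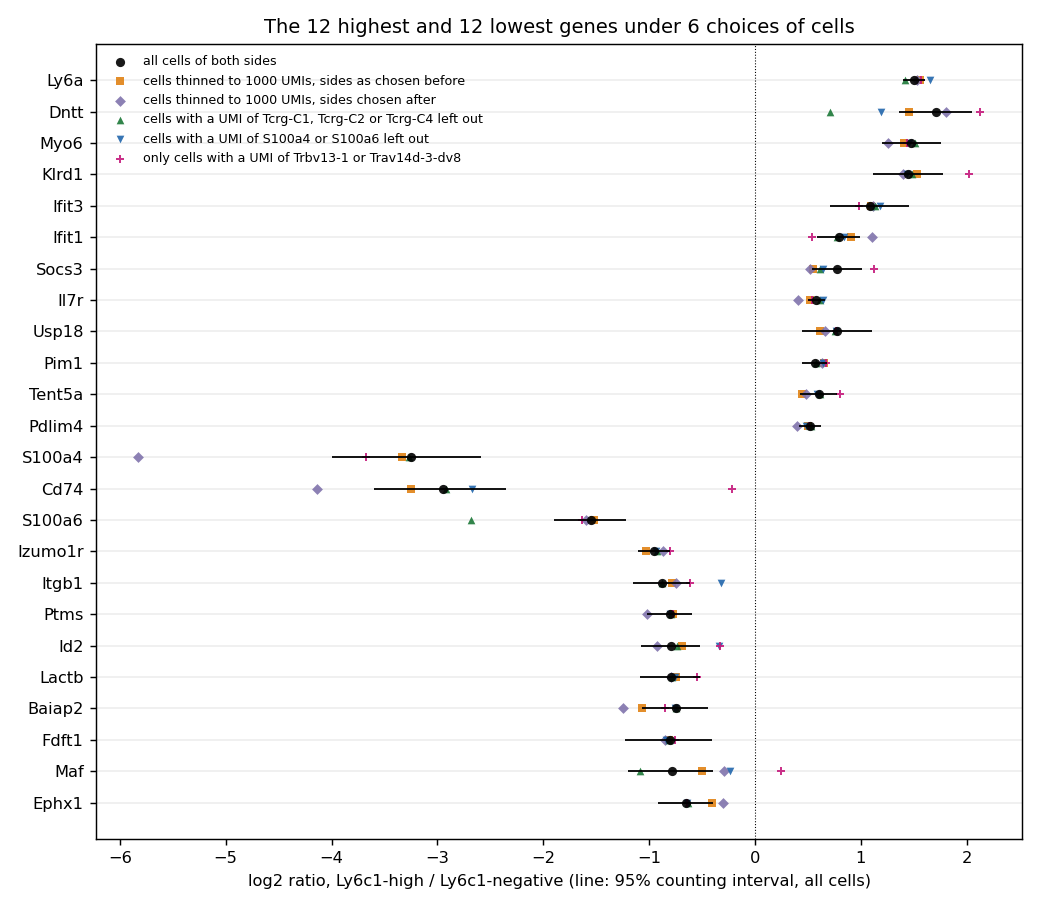
Log2 ratio of Ly6c1-high to Ly6c1-negative cells (horizontal axis) for the 12 highest and 12 lowest genes, in all cells (black, with the 95% counting interval) and under 5 other choices of cells. Ly6a, Myo6, Pim1 and Izumo1r stay close to their value, while Dntt and S100a6 move without cells holding gamma chain UMIs, Itgb1, Id2 and Maf without cells holding S100a4 or S100a6 (where these 2 genes have no value), and Cd74 and Maf in cells with a receptor UMI.

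The same split was made in the lymph node libraries, which the rule had not used. It gave 25 Ly6c1-high cells in the untreated tumor library, 12 with CTLA4 blockade, 13 with Treg depletion and 20 with both, with 45642, 65684, 31682 and 54473 UMIs. Their median depth was 1760, 2846, 2140 and 1733.5 UMIs per cell, against 2538, 3738, 3436 and 1835 on the negative side. The sides were thus less alike in depth than in the naive library, and the part of depth in the ratios of these libraries was not tested. Ly6a was above 1 in each, with ratios of 2.60 (1.83 to 3.60), 1.32 (0.933 to 1.82), 2.02 (1.70 to 2.39) and 2.11 (1.74 to 2.53) in that order. Il7r had 2.27 (1.11 to 4.16), 3.73 (2.42 to 5.50), 1.89 (0.856 to 3.62) and 1.94 (1.16 to 3.04). Pim1 had 3.24, 1.35, 3.31 and 1.90, with an interval that held 1 in the antibody library alone (0.646 to 2.50). Pdlim4 had ratios of 10.5 (4.83 to 21.1), 18.7 (9.51 to 33.9), 19.2 (6.42 to 48.2) and 14.8 (3.70 to 43.5), further from 1 than in the naive library. These rest on 11, 13, 6 and 4 UMIs of the high side, where 1.05, 0.696, 0.313 and 0.271 were expected from the negative side. Pdlim4 therefore falls short of the 5 expected UMIs required for the counts below. Izumo1r was below 1 in each, with ratios of 0.0968 (0.0355 to 0.211), 0.220 (0.138 to 0.333), 0.701 (0.444 to 1.05) and 0.674 (0.451 to 0.970).

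Counts over the 12 highest and 12 lowest genes used those with at least 5 UMIs expected on the high side from the level of the negative side, in the order untreated, CTLA4 blockade, Treg depletion and both. Of the 12 highest, 2, 4, 2 and 3 genes had that many, drawn from Ly6a, Pim1, Il7r and Ifit1. Each of them was above 1, and the interval excluded 1 for 2, 2, 2 and 3. Ifit1 had enough UMIs with CTLA4 blockade alone, at a ratio of 2.10 (1.04 to 3.78) on 11 UMIs of the high side. Ifit3 fell short of 5 expected UMIs in each library. With CTLA4 blockade it had 13 UMIs where 4.12 were expected, a ratio of 3.15 (1.67 to 5.45). In the untreated tumor library Ifit1 had 1 UMI and Ifit3 had 0 on the high side, where 3.92 and 3.34 were expected. With Treg depletion and with both treatments the intervals of these genes held 1. Of the 12 lowest, 6, 9, 8 and 9 genes had enough UMIs, and 5, 6, 5 and 6 of them were below 1. Their intervals lay below 1 for 4, 3, 2 and 6 and above 1 for 0, 3, 1 and 2. S100a6 had ratios of 2.54 (2.01 to 3.16), 1.68 (1.38 to 2.03) and 2.19 (1.82 to 2.62) in the 3 treated libraries and 0 UMIs on the high side of the untreated one. S100a4 had 8.77 (6.88 to 11.03) with CTLA4 blockade and 1.97 (1.41 to 2.70) with both treatments, and 2 and 0 UMIs on the high side of the Treg-depleted and untreated libraries. In the antibody library the 12 high cells held 691 Cd74 UMIs, 10520 CPM, against 564 CPM on its negative side, and 12 Klrd1 UMIs, 183 CPM against 1.53 CPM. The part of other cell types in these few cells was not tested. Each library is a single sample, so that differences between libraries have no replicate check.

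**Figure D5:**
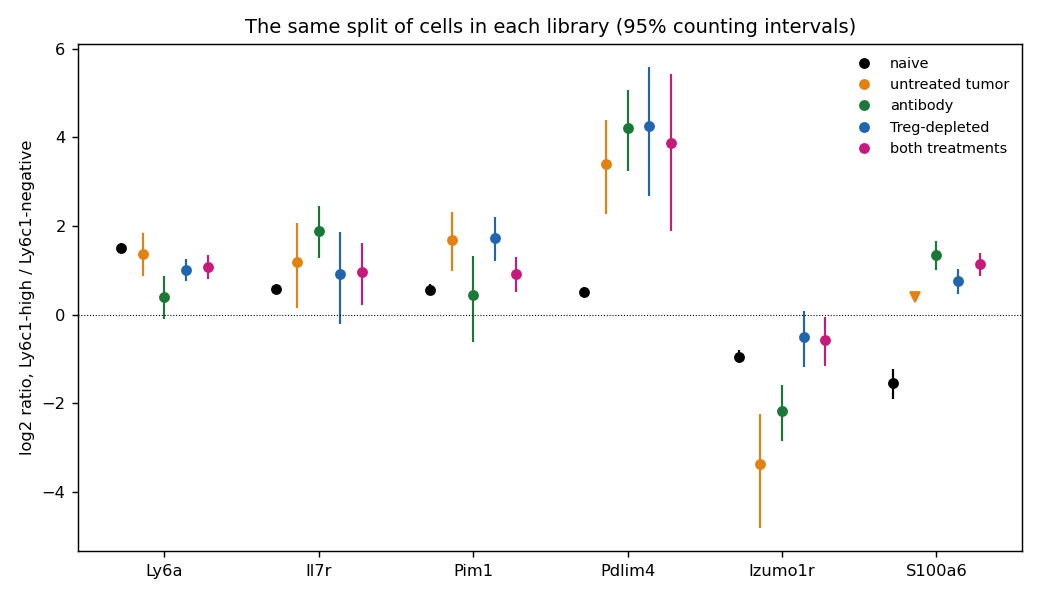
Log2 ratio of Ly6c1-high to Ly6c1-negative cells (vertical axis) for 6 genes in the naive library and the 4 lymph node libraries, with 95% counting intervals; a triangle marks the upper bound where the high side had 0 UMIs. Ly6a, Il7r, Pim1 and Pdlim4 lie above 0 and Izumo1r below 0 in each library, while S100a6 lies below 0 in the naive library and above 0 in the 3 treated ones.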

How the data were processed

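Droplet 3′ libraries of sorted SMARTA cells, 1 per group, were deposited as tables of UMI counts per gene and cell, made by the authors with Cell Ranger 6.0.0 (mm10), bcl2fastq 2.20, Seurat 4.0.4 and R 4.1.1 among their tools, per the submitters' processing notes. Each table lists 11924 genes. Genes not listed were not analysed here, and totals refer to listed genes. Cells were split and summed as described above (Python 3.11.15, numpy 2.4.6, scipy 1.17.1, pandas 2.3.3). Genes needed a mean of 25 CPM and 30 UMIs. Ratios carry exact 95% conditional binomial intervals, CPM exact Poisson and shares exact binomial intervals, all of counting error only. The ratio and its interval were tested on simulated Poisson counts, drawn independently for each gene and side. The simulation held no UMIs gathered in few cells, so it gives no check of the intervals of such genes. No doublet caller was run. As an alternative, cells carrying 2 or more markers of another type were removed.

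The members, gene lists, tests and alternatives were chosen with earlier results of these data known. Genes were named as the 12 at each end when ranked on whichever bound of the interval lay closer to 1, leaving out mitochondrial, ribosomal protein, receptor variable, immunoglobulin, hemoglobin, sex-linked and unnamed genes; the leading members of 24 gene lists; and a set of naive T cell genes. Coordinates came from GENCODE (GRCm38), which matched 11809 genes, and edgeR 4.0.16 (R 4.3.3) gave TMM factors as an alternative scaling. Some named genes and list members are not reported here.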

Additional observations from a re-analysis of the deposited data

How the results depend on the processing

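Of 2378 ratios of 119 named genes under 20 alternatives, 2149 stayed within their counting interval. Settings that changed only the CPM minimum kept every ratio as it was. They enter this count and the counts of sides of 1 below, although their outcome was fixed in advance. The TMM factors were 0.995 for the high and 1.005 for the negative side, so that setting could move ratios only a little. Among the 70 named genes that passed the list rule, 16 of 1398 ratios lay on the other side of 1, and among the other 49 named genes 72 of 980 did. Of the alternatives, 17 were planned and 3, which left out cells with S100a4 or S100a6, gamma chain or Cd74 UMIs, were chosen after the data had been seen. The counts of genes at least 1.5-fold higher and lower (18 and 22) became 31 and 48 with cells thinned to 1000 UMIs and sides as before (11 and 17 genes shared with the main result), 54 and 79 with sides chosen after thinning (12 and 16 shared), and 76 and 81 at 500 UMIs. They became 45 and 43 for 3 or more Ly6c1 UMIs, 7 and 13 for exactly 1 UMI, and 62 and 76 in cells with a receptor UMI. Without cells holding 2 or more genes of the G2M list they were 41 and 71. That setting left out most cells of both sides, with 652 and 1892 cells remaining, and does not single out cycling cells. The counts were 2 and 2 at a minimum of 100 CPM, and 117 and 228 with no minimum. Settings with fewer cells or UMIs have wider intervals, and the cause of each change was not tested. The lower count alone moved to 37 in all naive cells and to 13 without cells holding S100a4 or S100a6.

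Of the 70 genes, 10 changed sides of 1 with exactly 1 Ly6c1 UMI (as did 13 of the other 49): Ifit1 (0.963), Ikzf2 (0.517), Isg15 (0.971), Isg20 (0.890), Irf7 (0.994), Ifi213 (0.935), Gbp6 (0.956), H2-Q6 (0.981), Piga (0.879) and Sc5d (1.03). Ikzf2 also did in all naive cells (0.794), without cells of other types (0.549) and without gamma chain cells (0.560). So did Maf in receptor-positive cells (1.19), Piga without cells holding 2 or more G2M genes (0.95) and Ifi213 with sides chosen after thinning (0.926). No paired analysis was possible because each group is 1 library and the labels carry no replicate numbers. Depth limits genes near 25 CPM most.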
